A study of Mus musculus with 20 samples.

Results

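The genes described here carry the insulin and glucagon signals in the liver: the insulin receptor Insr, its docking proteins Irs1 and Irs2, the regulatory subunit Pik3r1 of phosphoinositide 3-kinase (PI3K), the kinases Akt1 and Akt2, the transcription factors Foxo1 and Foxo3, the glucagon receptor Gcgr, and the secreted insulin-responsive protein Igfbp1. They were chosen by gene symbol and make up 10 of the 18193 genes measured. A probe set is a group of short array oligonucleotides that reads 1 transcript region, and these genes have 25 of the 34945 probe sets that the platform annotation ties to exactly 1 gene. Of the 10 genes, 6 have several probe sets and 4 have 1.

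Liver RNA came from 20 male C57BL/6J mice, 8 weeks old, with 1 Affymetrix 3' expression array per mouse. In the MSXH group, 10 mice had eaten for 4 weeks a high-fat diet (45 kcal% fat) that held 0.02% of an extract of maple syrup, which the labels call MSXH. In the HFD group, 10 mice had eaten the same high-fat diet without the extract for the same time. All animals were fasted for 16 h before the liver was taken, so neither group shows a fed liver. A low-fat group and a group given more extract, which the study design names, were not analysed here.

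Insulin binds its receptor, which phosphorylates the IRS proteins. These recruit PI3K, and PI3K activates AKT, which phosphorylates FOXO proteins and so keeps them out of the nucleus. In fasting, insulin is low and glucagon is high. FOXO1 and the cAMP pathway below the glucagon receptor then drive gluconeogenesis, and Igfbp1 and Irs2 are textbook targets that insulin represses.

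The deposited values are on a log scale, taken as log2, between 5.1733 and 15.0055, and their spread between arrays is very small: over the 20 arrays, the SD of a probe set was 1.07e-05 at the median. Each difference is expressed as a standardized difference, which is MSXH minus HFD in units of the pooled SD within groups, with a 95% confidence interval, and not as folds. Array medians spanned 0.00099, and the whole range over the 20 mice was smaller than that for 6 of the 10 genes (Insr, Irs1, Irs2, Akt1, Akt2 and Gcgr), so that the direction of these can turn when arrays are rescaled. Hepatocyte markers were bright on every array: all 9 measured lay above every array median, and their mean level ran from 13.6272 to 13.6339 in MSXH and from 13.6264 to 13.6349 in HFD. MSXH 4 and MSXH 6 carried transcripts of skeletal muscle. The mean of 12 muscle markers was 8.18 and 7.59 on these arrays, against 6.3686 to 6.4514 in the other MSXH mice and 6.3635 to 6.4321 in HFD. These arrays also had the highest medians, and the members' differences without them are given beside the results. Adipocyte markers had means of 6.7408 to 6.7572 in MSXH and 6.7431 to 6.7568 in HFD, and pancreatic islet markers of 6.3768 in both groups. Of the 5 adipocyte markers, 3 were highest on MSXH 4 or MSXH 6. Among them, Adipoq was 5.84 on both, against 5.82 on the other 18 arrays. Macrophage markers had means of 8.5082 to 8.5116 in MSXH and 8.5084 to 8.5109 in HFD, endothelial markers of 8.6124 to 8.6148 in MSXH and 8.6130 to 8.6142 in HFD, and stellate cell markers of 8.0838 to 8.0877 in MSXH and 8.0839 to 8.0845 in HFD. Without MSXH 4 and 6 the stellate cell means in MSXH reached only 8.0846. The part of these cell types in the results was not tested.

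Setting MSXH against HFD addresses whether these genes differ in liver when the extract is added to a high-fat diet. Gcgr stood higher in MSXH as deposited but not when all arrays were rescaled. Igfbp1 stood lower under every setting, as did Pik3r1 at its brightest probe set or as the mean of its probe sets. Taken singly, Pik3r1 probe sets 1425514_at (0.25) and 1451737_at (0.02) did not stand lower. The other 7 genes had intervals that included 0 at their brightest probe sets. By limma, 0 of the 10 genes passed an adjusted p of 0.05 over all genes, as did 0.0% of the 18193 genes. With no adjustment, 3 of the 10 had a p under 0.05, 1 higher and 2 lower, against 10.9% of all genes (6.58% higher and 4.31% lower). The rank sum test counted 2 of the 10 at that unadjusted p, against 1697 of the 18193 genes. After adjustment it counted 0 of the 10, against 4 of all genes. In total 4 genes stood higher and 6 lower, with a median standardized difference of -0.14, against 0.07 over all genes, of which 54.7% stood higher. In whole-liver RNA, fewer cells of a type and less RNA per cell cannot be told apart.

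Gcgr is the G protein-coupled receptor through which glucagon raises cAMP in hepatocytes. Its level ran from 10.3664619 to 10.3664926 in MSXH (median 10.3664795) and from 10.3664534 to 10.3664869 in HFD (median 10.3664655). The groups overlapped: MSXH 4 and MSXH 7 lay among the HFD mice, and HFD 5 lay among the upper MSXH mice. The mean was 10.3664783 ± 8.72e-06 in MSXH and 10.3664657 ± 9.49e-06 in HFD (SD, n = 10 each), and of the 100 ways to pair a mouse of each diet, the MSXH mouse was higher in 82. The standardized difference was 1.38 (0.38 to 2.35), the unadjusted permutation p was 0.00739 and limma's adjusted p was 0.297. It was 1.69 (adjusted p 0.276) without MSXH 4 and 6. Under array centring and quantile normalization of all arrays it turned, to -0.50 and -0.67, and without MSXH 4 and 6 these scalings gave 0.40 and 0.53.

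Igfbp1 is a liver-made binding protein of insulin-like growth factors. Its level ran from 12.0051803 to 12.0410425 in MSXH (median 12.0234647) and from 12.0114805 to 12.0589850 in HFD (median 12.0377280). The lowest pair of mice, MSXH 1 and MSXH 5, and the highest 3, HFD 10, HFD 9 and HFD 1, lay outside the range of the other diet. The standardized difference was -1.11 (-2.05 to -0.15), with the MSXH mouse higher in 23 of 100 pairs, a permutation p of 0.0243 and an adjusted p of 0.368. It was -1.17 without MSXH 4 and 6, -1.14 after centring and -1.18 after quantile normalization, and these scalings without MSXH 4 and 6 gave -1.17 and -1.14. Igfbp1 was also the most variable of the 10 genes between mice: its SD of 0.0149 lay at the 99.3rd percentile of all genes.

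Pik3r1 encodes p85alpha and its shorter forms, the adaptor that brings the PI3K catalytic subunit to IRS proteins. At its brightest probe set (1438682_at) the level ran from 8.1967080 to 8.2060085 in MSXH (median 8.2013231) and from 8.2018626 to 8.2072545 in HFD (median 8.2042497). Of the MSXH mice, 5 (MSXH 2, 3, 4, 7 and 8) lay below every HFD mouse, and the other 5 lay within the HFD range, with a gap between them. The SD was 0.0035 in MSXH and 0.00168 in HFD. The standardized difference was -1.02 (-1.94 to -0.07), the permutation p was 0.036 and the adjusted p 0.408. The MSXH mouse was higher in 31 of 100 pairs. Without MSXH 4 and 6 the difference was -0.98, and with the mean of the gene's probe sets it was -0.89.

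**Figure D1:**
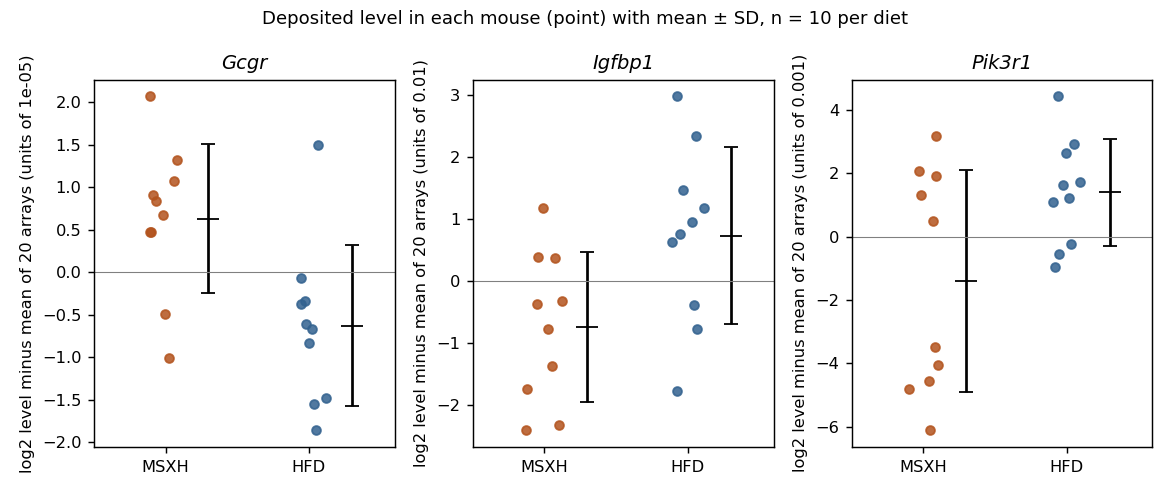
Level of Gcgr, Igfbp1 and Pik3r1 in each of the 20 mice, as the deposited log2 level minus the mean of the 20 arrays, in the units given on each axis, with the mean ± SD of each diet (n = 10). Of 100 pairs, the MSXH mouse was higher in 82 for Gcgr (whose direction turned when all arrays were rescaled), in 23 for Igfbp1 and in 31 for Pik3r1, with 5 MSXH mice below every HFD mouse.

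The 4 probe sets of Pik3r1 did not give 1 answer. Probe sets 1438682_at and 1425515_at stood at -1.02 and -1.04, while 1425514_at stood at 0.25 (-0.63 to 1.13) and 1451737_at at 0.02 (-0.86 to 0.89). Across mice, with the mean of each diet taken off, the lower pair followed each other closely (Pearson r 0.98, permutation p 1e-05; Spearman rho 0.97, permutation p 2e-05), and so did the other pair (r 0.93, rho 0.91, permutation p 1e-05 for both, the smallest possible). Between the pairs rho was only 0.27 to 0.29 (adjusted permutation p 0.409 for each). Without HFD 2 and MSXH 9, rho of 1425514_at was 0.46 with 1425515_at and 0.49 with 1438682_at. For 1451737_at rho was 0.19 with 1425515_at without MSXH 1 and 8, and 0.31 with 1438682_at without MSXH 1 and 3. Of the 27 relations computed between probe sets of 1 gene, 11 passed an adjusted permutation p of 0.05 by rho and 8 by r. Both counts include a negative relation, between 1421324_a_at and 1455703_at of Akt2 (rho -0.62, r -0.57, adjusted permutation p 0.0213 and 0.0425). RefSeq gives Pik3r1 a pair of start sites in GRCm38.p6, and the deposited table does not say which transcript a probe set reads.

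The 250 bases before the RefSeq start (GRCm38.p6) are shown for Pik3r1, whose probe sets split into pairs, and for Igfbp1 and Irs2, which insulin represses through FOXO proteins. Capitals mark matches on either strand to the insulin response element core CAAAACA, the FOXO core GTAAACA, the cAMP response element TGACGTCA or its short form TGACG, which lies within the longer element.
Igfbp1, chr11:7197537-7197786, plus strand: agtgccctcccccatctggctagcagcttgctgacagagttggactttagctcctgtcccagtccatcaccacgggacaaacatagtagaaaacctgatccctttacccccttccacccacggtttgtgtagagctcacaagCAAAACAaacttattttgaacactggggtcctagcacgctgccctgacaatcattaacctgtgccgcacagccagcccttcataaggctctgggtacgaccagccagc
Irs2, chr8:11008930-11009179, minus strand: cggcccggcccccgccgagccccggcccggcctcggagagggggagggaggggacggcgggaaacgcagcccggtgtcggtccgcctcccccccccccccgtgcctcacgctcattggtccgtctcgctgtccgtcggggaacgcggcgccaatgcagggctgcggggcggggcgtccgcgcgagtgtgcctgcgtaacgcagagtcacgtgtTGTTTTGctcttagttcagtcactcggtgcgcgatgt
Pik3r1 upstream start, chr13:101768218-101768467, minus strand: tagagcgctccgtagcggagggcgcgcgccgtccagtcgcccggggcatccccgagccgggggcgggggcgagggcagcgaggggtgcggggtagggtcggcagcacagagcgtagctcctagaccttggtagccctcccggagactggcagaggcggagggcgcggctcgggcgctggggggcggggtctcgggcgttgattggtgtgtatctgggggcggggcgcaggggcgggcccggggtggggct
Pik3r1 downstream start, chr13:101692631-101692880, minus strand: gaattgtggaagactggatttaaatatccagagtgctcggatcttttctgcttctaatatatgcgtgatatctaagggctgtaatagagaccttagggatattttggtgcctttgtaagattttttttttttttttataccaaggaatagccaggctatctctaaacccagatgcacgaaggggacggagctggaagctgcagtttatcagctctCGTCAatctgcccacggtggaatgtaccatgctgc
The Igfbp1 window holds the insulin response element core once, at -108 to -102 from the start, and the Irs2 window holds it once on the opposite strand, at -37 to -31. That core is found in 5.56% of the 32851 windows of this length in the table. The downstream Pik3r1 window has TGACG, on the opposite strand, at -35 to -31, as do 17.8% of windows, and the upstream window has none of these motifs. Of the other members with a window, Akt1 has the FOXO core (3.17% of windows), Irs1 has the insulin response element core at 2 places and TGACG once, and Akt2 and Foxo3 have TGACG. A match is a run of letters and was not tested as a binding site.

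For the receptor Insr, the docking proteins Irs1 and Irs2, and the kinases Akt1 and Akt2, every interval at the brightest probe set included 0. Insr, the receptor tyrosine kinase, ran from 9.7534599 to 9.7534819 in MSXH (median 9.7534673) and from 9.7534547 to 9.7534892 in HFD (median 9.7534761), a standardized difference of -0.76 (-1.66 to 0.16) (-0.62 without MSXH 4 and 6) that turned when arrays were rescaled without these. The HFD mice held both extremes, with HFD 1 lowest and HFD 9 highest. Its other probe sets stood at -0.06 and -0.81, and both lay under every array median. Irs1, the docking protein, ran from 8.8575523 to 8.8579864 in MSXH and from 8.8574839 to 8.8580431 in HFD, with medians of 8.8578391 and 8.8578319 and a difference of 0.14 (-0.74 to 1.02), 0.19 without MSXH 4 and 6 and -0.45 after centring. The ranges overlapped almost wholly.

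Irs2, the docking protein that insulin itself represses in liver, ran from 7.4131402 to 7.4139912 in MSXH (median 7.4136932) and from 7.4134380 to 7.4139077 in HFD (median 7.4136806). Here the MSXH mice held both extremes, with MSXH 1, 5 and 3 below every HFD mouse and MSXH 7 and 8 above every HFD mouse. The standardized difference was -0.19 (-1.06 to 0.69), -0.29 without MSXH 4 and 6 and 0.40 after quantile normalization without them, and the SD was 0.000294 in MSXH and 0.000146 in HFD. The difference in spread was not tested.

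Akt1 and Akt2 encode serine/threonine kinases, of which Akt2 carries much of the metabolic response to insulin. Akt1 ran from 8.2050430 to 8.2050582 in MSXH and from 8.2050365 to 8.2050600 in HFD, a difference of 0.38 (-0.51 to 1.26). Its other 3 probe sets stood between -0.23 and -0.14. Akt2 ran from 8.5967659 to 8.5967897 in MSXH and from 8.5967586 to 8.5967911 in HFD, a difference of 0.72 (-0.20 to 1.62), and its other probe sets stood at 0.36 and -0.07. Both genes turned under centring (-0.52 for Akt1, -0.51 for Akt2) and quantile normalization (-0.47 and -0.78) of all arrays, and the HFD mice held both extremes of each. Without MSXH 4 and 6 the differences were 0.51 for Akt1 and 0.64 for Akt2.

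Foxo1 and Foxo3 encode the forkhead factors that AKT inactivates. Foxo1 ran from 8.1982234 to 8.2010298 in MSXH (median 8.2003742) and from 8.1987044 to 8.2014325 in HFD (median 8.2001805), a difference of -0.09 (-0.97 to 0.79). Foxo3 ran from 8.1832187 to 8.1846107 in MSXH (median 8.1839492) and from 8.1836272 to 8.1849577 in HFD (median 8.1838759), a difference of -0.24 (-1.12 to 0.64), and both turned under quantile normalization without MSXH 4 and 6. Without these mice and with no rescaling, the differences were -0.18 for Foxo1 and -0.21 for Foxo3. For both, the lowest mouse was MSXH 10 and the highest was HFD 2. Their dimmest probe sets stood apart from the bright ones: 1456529_at of Foxo1 stood at -1.18 (-2.12 to -0.21) and 1450236_at of Foxo3 at -1.05 (-1.97 to -0.09), with adjusted p of 0.368 and 0.413. Both lay under every array median, and whether they read a transcript in liver was not tested. The bright Foxo1 probe sets stood between -0.47 and 0.07.

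Over all 25 probe sets, 8 stood higher and 17 lower in MSXH, while 53.0% of the 34945 probe sets stood higher. Of the 25, 6 had an unadjusted p under 0.05, against 10.7% of the 34945 probe sets (6.03% higher and 4.69% lower). All 6 but Gcgr stood lower. None of the 25 passed an adjusted p of 0.05, as with 0.0% of the 34945. The 2 diets overlapped at every one of the 25. The share of all probe sets with such overlap was not counted, so this is no trait of these genes. Of the 6 genes with several probe sets, 4 (Pik3r1, Akt1, Akt2 and Foxo1) had probe sets of both signs.

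**Figure D2:**
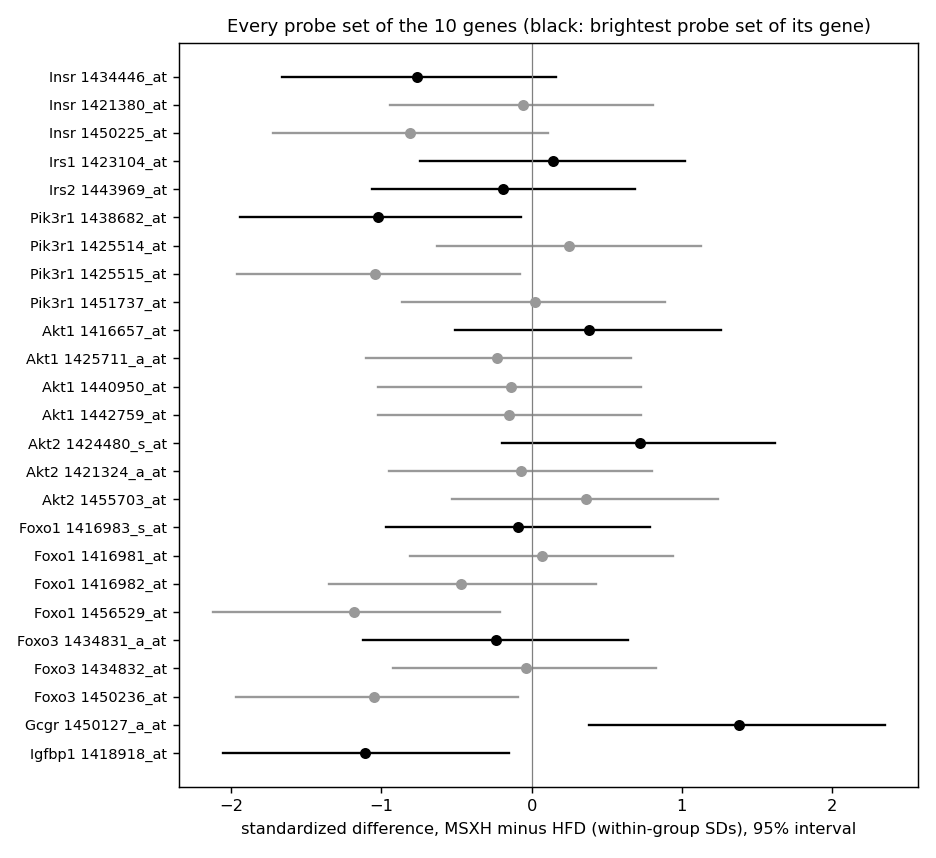
Standardized difference, MSXH minus HFD, with its 95% interval (n = 10 mice per diet) for each of the 25 probe sets, black for the brightest probe set of a gene and grey for the others. The brightest probe sets of Gcgr (1.38), Pik3r1 (-1.02) and Igfbp1 (-1.11) have intervals that exclude 0, and 6 probe sets do in all; Irs1, Akt1, Akt2 and Gcgr turn when all arrays are centred, and Insr, Irs2, Foxo1 and Foxo3 under a rescaling without MSXH 4 and 6.

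Other genes of the pathway were described from lists of the receptor pathway, its brakes, its target genes, the cAMP pathway and the IGF-binding proteins. By limma none of their 103 measured genes passed an adjusted p of 0.05. Of the signalling genes from receptor to AKT and mTORC1, 20 of 30 stood higher and 10 lower, with a median of 0.12, and 1 (3.33%) had an unadjusted p under 0.05, against 10.9% of all genes. That was Grb2, the adaptor that links receptors to RAS, at 1.03 (0.08 to 1.96), which turned under both scalings of all arrays and stood at -0.33 at its other probe set. Gab1, a docking adaptor, stood at 0.79 (-0.13 to 1.69) and turned likewise. Of 13 genes listed as brakes on insulin signalling, 8 stood higher and 5 lower, and 0 had an unadjusted p under 0.05. The list holds Pde3b and Ceacam1, which are not plain brakes, and the receptor list holds the inhibitors Grb10, Grb14, Tsc1 and Tsc2. These counts thus do not separate signal from brakes. Among the 13, the genes of smallest p were the receptor phosphatase Ptprf at 0.66 (-0.25 to 1.55) and the ubiquitin ligase Cblb at -0.71 (-1.61 to 0.21). Ptprf turned under both scalings of all arrays and Cblb under both without MSXH 4 and 6.

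Of the 14 genes that insulin suppresses and FOXO1 drives, 7 stood higher and 7 lower, with a median of -0.06, and 4 (28.6%) had an unadjusted p under 0.05, against 10.9% of all genes. Sesn3, a stress-inducible sestrin, stood higher, at 1.52 (0.50 to 2.51) and in 86 of 100 pairs, but turned under both scalings of all arrays. Cited2, a transcriptional coregulator, ran from 7.625478 to 7.626941 in MSXH (median 7.626080) and from 7.623945 to 7.625987 in HFD (median 7.625407). The MSXH median thus lay above the highest HFD mouse, at a standardized difference of 1.45 (0.44 to 2.43, adjusted p 0.266). Its other probe set stood at 1.38. When 1 array was left out Cited2 stood at 1.34 to 1.65, but over all settings its lowest value was 0.20, still higher in MSXH. The microsomal transfer protein gene Mttp and the cyclin gene Ccng2, chosen after their values were seen, stood at -1.07 and -1.04, and Mttp turned under both scalings without MSXH 4 and 6.

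Of 6 genes that insulin induces, 4 stood higher and 2 lower, with a median of 0.74 against 0.07 over all genes. After centring the list's median was -0.25, against -0.52 over all genes, and after quantile normalization 0.18, against -0.56. An unadjusted p under 0.05 was found for 2 of the 6 (33.3%), against 10.9% of all genes. Angptl8, a secreted inhibitor of lipoprotein lipase activity that feeding induces, ran from 7.100046 to 7.106135 in MSXH (median 7.101854) and from 7.098469 to 7.102945 in HFD (median 7.099814). The MSXH mouse was higher in 84 of 100 pairs, and the standardized difference was 1.26 (0.28 to 2.21, adjusted p 0.311). Srebf1, the gene of the lipogenic factor SREBP1, stood at 0.96 (0.02 to 1.88, adjusted p 0.437). Both kept their direction under every scaling tried.

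Of 30 genes below the glucagon receptor, 16 stood higher and 14 lower, and 2 (6.67%) had an unadjusted p under 0.05, both lower, a share under the 10.9% of all genes. Adcy5, an adenylyl cyclase, stood at -1.27 (-2.22 to -0.29), with its other 3 probe sets between -0.39 and 0.03, and turned under quantile normalization without MSXH 4 and 6. Sik3, a salt-inducible kinase that holds back CREB coactivators, stood at -1.09 (-2.02 to -0.13), with others between -0.09 and 0.74, and was 0.07 after centring without MSXH 4 and 6. Of the 10 IGF and IGF-binding protein genes, 4 stood higher and 6 lower, and 2 (20.0%) had an unadjusted p under 0.05. Igfbp3 stood at -1.10 (-2.03 to -0.14), with its other probe set at -0.93. Igfbp4 stood at 1.14 (0.18 to 2.08), with its other 5 probe sets between -0.15 and 0.58, and turned under both scalings of all arrays.

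**Figure D3:**
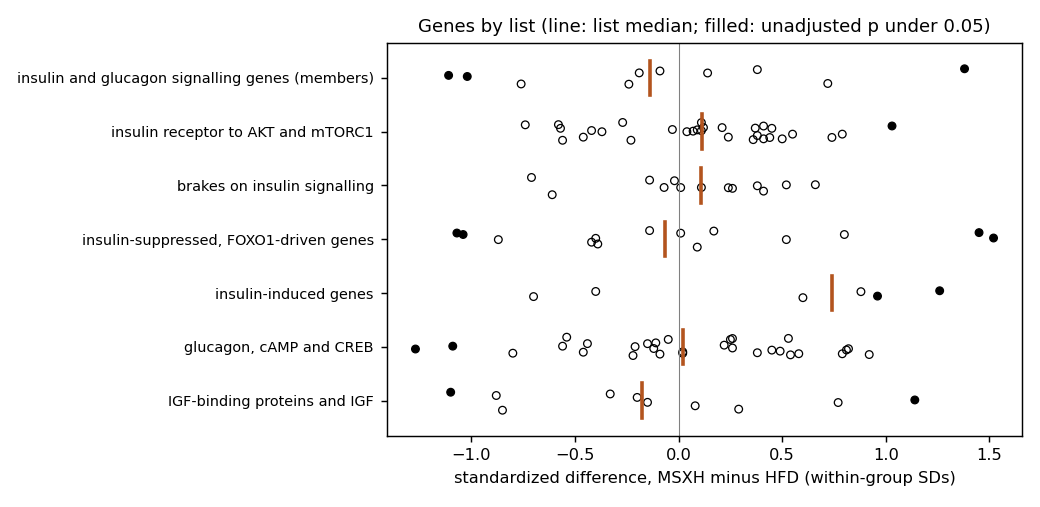
Standardized difference, MSXH minus HFD, of each gene by list, with the list median as a line and filled points for an unadjusted p under 0.05. Medians lie between -0.17 and 0.74, against 0.07 over all genes, and after centring of all arrays all 6 medians are below 0, between -0.53 and -0.25.

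The 10 genes differed in how much they varied between mice. The SD over 20 mice lay above the 90th percentile of all genes for 6 of them (Igfbp1, Pik3r1, Foxo1, Foxo3, Irs2 and Irs1) and under the 50th for the other 4 (Gcgr, Akt2, Insr and Akt1). Of the 14 FOXO1-driven genes, 10 lay above the 90th percentile. These ranks describe the deposited values, and how the submitters' processing bears on them was not tested.

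Whether members varied together was asked over the 20 mice, with the mean of each diet taken off and permutation within diets. Of the 45 pairs of members, 2 passed an adjusted permutation p of 0.05 by Spearman rho and 3 by Pearson r. Pik3r1 ran against Foxo1, with rho -0.67 (permutation p 0.00077, adjusted 0.0236) and r -0.62 (permutation p 0.00227, adjusted 0.034), and r was -0.54 once the 2 mice of most extreme Pik3r1 were left out. It also ran against Igfbp1, with rho -0.69 (permutation p 0.00105, adjusted 0.0236) and r -0.64 (permutation p 0.00186, adjusted 0.034), and again r -0.64 without those mice. In the HFD mice alone neither relation passed (rho -0.50, permutation p 0.145, and rho -0.49, permutation p 0.156). Without MSXH 4 and 6 the relation with Foxo1 passed (rho -0.72, adjusted permutation p 0.0459) and that with Igfbp1 did not (rho -0.68, adjusted permutation p 0.0618). The MSXH mice fell into 2 sets of 5 in Pik3r1, which is too few for a value within each. Both calls were lost when any 1 of MSXH 1, 3 and 5 and HFD 9 and 10 was left out (adjusted permutation p 0.0558 to 0.14), with rho still between -0.65 and -0.61 for Foxo1 and between -0.70 and -0.64 for Igfbp1. All these values are for the brightest Pik3r1 probe set. Its close companion 1425515_at had rho -0.67 with both genes. The other pair, 1425514_at and 1451737_at, had rho 0.26 and 0.22 with Foxo1 and -0.26 and -0.44 with Igfbp1. The inverse relation with Foxo1 was thus not seen at every Pik3r1 probe set.

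Foxo1 and Foxo3 varied together by r, at 0.68 (permutation p 0.00153, adjusted 0.034), while rho was 0.63 (permutation p 0.00442, adjusted 0.0663). Within MSXH r was 0.67 and within HFD 0.69 (permutation p 0.0338 and 0.0236), and r was 0.59 without the 2 farthest mice. By rank the relation was weaker in MSXH, with rho 0.43, than in HFD, with rho 0.75 (permutation p 0.217 and 0.0169). Igfbp1 had rho 0.57 with Foxo1 and 0.53 with Irs2 (adjusted permutation p 0.138 and 0.17). Probe sets of 1 gene give a measure of how well these values follow a transcript. The 3 bright probe sets of Foxo1 had rho of 0.82 to 0.93 with each other and the 2 bright ones of Foxo3 had 0.96. By contrast, the 3 probe sets of Insr had rho between -0.26 and 0.21, and those of Akt2 between -0.62 and 0.56.

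**Figure D4:**
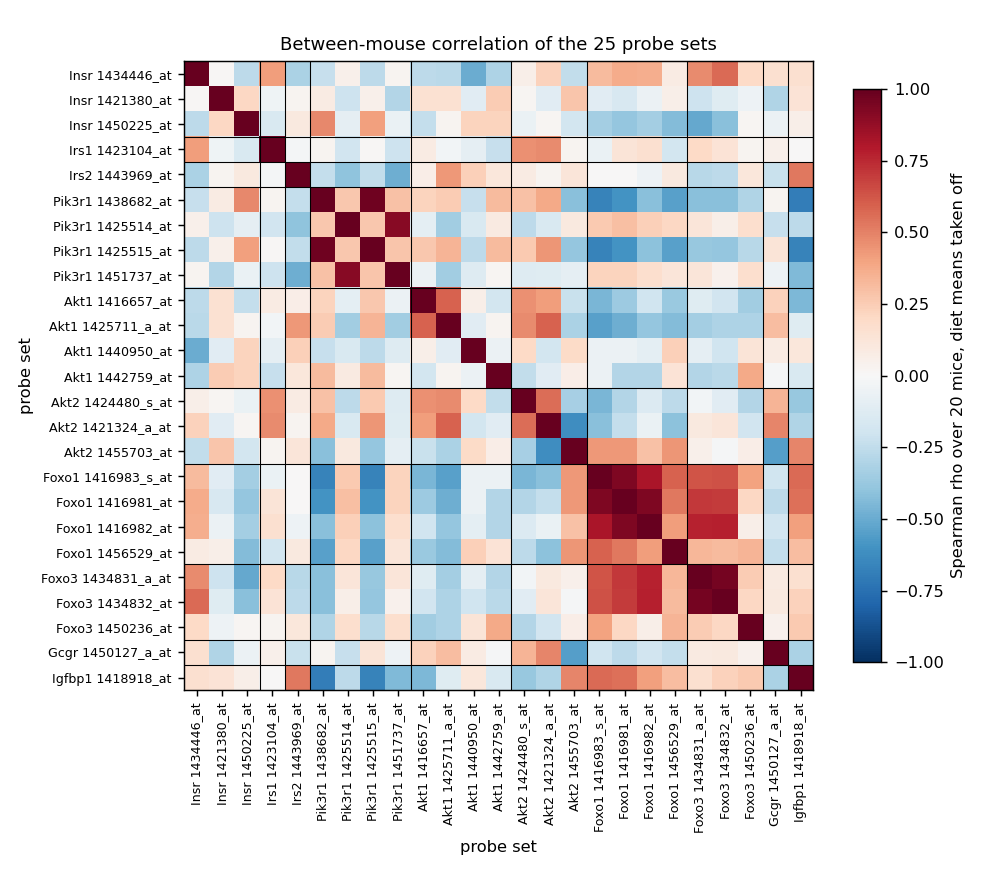
Spearman rho between each pair of the 25 probe sets over 20 mice, with the mean of each diet taken off, on a scale from -1 (blue) to 1 (red), and black lines between genes. The bright probe sets of Foxo1 and of Foxo3 form red blocks, Pik3r1 shows a pair with rho 0.97 and a pair with rho 0.91, and the brightest Pik3r1 probe set is blue against Foxo1 (-0.67) and Igfbp1 (-0.69). Pik3r1 probe sets 1425514_at and 1451737_at have 0.26 and 0.22 with the brightest Foxo1 probe set, and -0.26 and -0.44 with Igfbp1.

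Because Foxo1, Pik3r1 and Igfbp1 made up the pairs called by rho, each was then set against the 14 FOXO1-driven and 6 insulin-induced genes. This step was chosen after the first relations were seen. Foxo3, called with Foxo1 by r only, was left out. Of 60 relations, 14 passed an adjusted permutation p of 0.05 by rho and 8 by r. No share over all genes was set beside these counts, so they do not show a trait particular to insulin-regulated genes. Genes outside these lists reached rho 0.96 with Foxo1 (C4bp-ps1), 0.89 with Pik3r1 (Cyp2a12) and 0.85 with Igfbp1 (Brca1). Foxo1 varied with Ppargc1a, the gene of the coactivator PGC1alpha, with rho 0.94 and r 0.88 (permutation p 1e-05 for each, the smallest possible; adjusted 0.0006). Within MSXH rho was 0.92 and within HFD 0.94 (permutation p 0.00072 and 0.00023), and r was 0.83 once the 2 mice of most extreme Foxo1 were left out. Foxo1 also varied with Klf15, a fasting-induced transcription factor (rho 0.81, r 0.82, adjusted permutation p 0.0021 and 0.0009, rho 0.89 within MSXH and 0.77 within HFD). With Pck1, the gluconeogenic enzyme PEPCK, rho was 0.70 and r 0.72 (adjusted permutation p 0.015 and 0.00675, rho 0.73 within MSXH and 0.67 within HFD). Without the 2 farthest mice r was 0.72 for Klf15 and 0.60 for Pck1.

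Igfbp1 varied with G6pc, the catalytic subunit of glucose-6-phosphatase, with rho 0.74 and r 0.78 (adjusted permutation p 0.0112 and 0.0034), with rho of 0.71 within MSXH and 0.82 within HFD, and r 0.67 without the 2 farthest mice. It had 6 such relations in all, 5 positive and 1 negative, the negative one with Srebf1 (rho -0.58, adjusted permutation p 0.047). Pik3r1, read at its brightest probe set only, had 4, all negative, with Ppargc1a, Klf15, Pck1 and Ccng2 (rho -0.69 to -0.59). None of these passed within HFD alone. Foxo1 had 4, all positive. The relations of Foxo1 with Ppargc1a and Klf15 passed after quantile normalization (rho 0.72 and 0.66), after centring (0.81 and 0.83) and without MSXH 4 and 6 (0.95 and 0.82). That with Pck1 passed without MSXH 4 and 6 (0.75) but not after centring (0.60, adjusted permutation p 0.0506), and could not be computed after quantile normalization. That of Pik3r1 with Ppargc1a passed in each of these settings too (rho -0.57, -0.58 and -0.59). Those of Pik3r1 with Klf15, Pck1 and Ccng2 passed in none, and Pck1 again could not be computed after quantile normalization. Their rho was -0.36, -0.09 and -0.28 after centring (adjusted permutation p 0.347, 0.889 and 0.552). Without MSXH 4 and 6 it was -0.56, -0.57 and -0.65 (adjusted permutation p 0.0717, 0.0857 and 0.0985). The relation of Igfbp1 with G6pc passed without MSXH 4 and 6 (0.76) but was 0.53 after centring (adjusted permutation p 0.118) and -0.08 after quantile normalization. Igfbp1 with Pck1 passed without MSXH 4 and 6 (rho 0.66) but was 0.21 after centring (adjusted permutation p 0.64). Igfbp1 with Srebf1 passed in none of these settings (rho -0.51 after quantile normalization, -0.55 after centring and -0.55 without MSXH 4 and 6). In the comparison of diets, Ppargc1a, Klf15, Pck1 and G6pc themselves stood at -0.40, -0.14, -0.42 and -0.87, none passed, and G6pc turned under quantile normalization without MSXH 4 and 6. The other probe sets of Pck1 stood at -1.16 and 0.15.

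**Figure D5:**
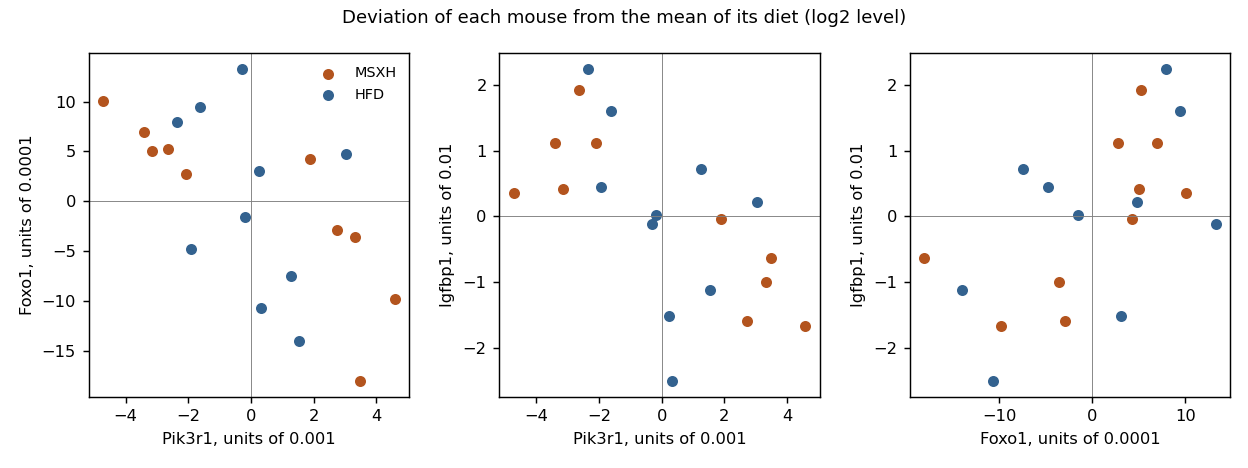
Deviation of each mouse from the mean of its diet for Pik3r1 against Foxo1, Pik3r1 against Igfbp1, and Foxo1 against Igfbp1, in log2 units scaled as on each axis (10 MSXH and 10 HFD mice). The first and second panels slope down, with rho -0.67 and -0.69, and the third slopes up, with rho 0.57, and the MSXH mice fall into 2 sets of 5 along Pik3r1. Each gene is shown at its brightest probe set only.

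Among all 18183 genes outside the 10, those most like each member in rank over the 20 mice, with the mean of each diet taken off, were named as a description. For Foxo1 they were C4bp-ps1, a pseudogene of the C4b-binding protein (rho 0.96), and Ppargc1a (0.94). For Pik3r1 they were the cytochrome P450 gene Cyp2a12 (0.89) and the lysosomal membrane gene Laptm4a (0.88). For Igfbp1 they were the DNA repair gene Brca1 (0.85) and the mitochondrial glutamate carrier Slc25a22 (0.84). For Irs1 they were Shc3 (0.84) and Myo3a (0.76), for Irs2 Soga3 (0.79) and Hap1 (0.78), and for Insr 8430422H06Rik (0.78) and Zfp36l2 (0.75). Akt2 was most like Dusp11 (0.86) and Dbi (0.81), and Akt1 most like Vpreb1 (0.80) and Zc3h7a (0.78). Foxo3 was most like Susd6 (0.81) and Klhl21 (0.80), and Gcgr most like Prl3c1 (0.81) and Slc2a6 (0.78). The highest of 18183 values is high in any case, and both genes of a pair were read on the same arrays, so the list shows only which genes lie nearest.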

How the data were processed

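Each mouse gave 1 array value per probe set. The deposited table holds 45101 probe sets, and how the authors scanned, background-corrected, normalized and summarised the arrays was not given in the sources used here. From their range the deposited values were read as log2 levels, though the labels state no base. Labelling used the Affymetrix 3' IVT Express kit, per the labels' protocols.

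The platform annotation gives 1 symbol for 34958 probe sets, several for 932 and none for 9211. Without the 64 controls, and taking for each gene the probe set with the highest mean, 18193 genes were left, with no filter on level. MSXH was compared with HFD by limma 3.58.1 in R 4.3.3 (lmFit, eBayes with trend, two-sided, Benjamini-Hochberg over all genes, threshold 0.05), with no covariate. Permutation tests were two-sided with 100000 resamples, in Python 3.11.15 with numpy 2.4.6 and scipy 1.17.1. The limma step was checked on simulated data. No array repeats another (0 identical pairs), and the number of mice limits the precision. Replicate numbers only name mice: mice of the same number had deviations correlated at -0.265 to 0.165. The labels state biological replicates and give no batch.

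The members and lists were chosen with earlier results of these data known. The genes named are the 10 members, the 2 genes of smallest p of each list, and the 2 genes most like each member. Mttp, Ccng2, G6pc, Klf15 and Pck1 were chosen after their values were seen. Promoter windows are from RefSeq (GRCm38.p6) and were found for 9 of the 10 members. Alternatives were quantile normalization, array centring, the replicate number as block, averaged probe sets per gene, all probe sets singly, genes above the median gene, eBayes without trend or with a robust trend, the rank sum test, and leaving out MSXH 4 and 6 or each array.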

Additional observations from a re-analysis of the deposited data

Results flagged for a closer look

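2 of the 50 sets of 10 values (25 probe sets in 2 diets) held a mouse far from the others of its diet, where chance flags about 1 in 20. HFD 5 was the highest HFD mouse for Gcgr, at 10.36648693 against 10.36647123 for the next one, a gap of 0.468 of the range in HFD. Without HFD 5 the standardized difference of Gcgr was 1.96 (limma's adjusted p 0.16), against 1.38 with all mice. HFD 6 was the lowest HFD mouse at probe set 1440950_at of Akt1, at 6.80279046 against 6.80280534 for the next one, a gap of 0.484 of the range. That probe set is not the brightest of Akt1 and stood at -0.14.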

How the results depend on the processing

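No setting brought a member past an adjusted p of 0.05, whose lowest value over all settings was 0.16 (Gcgr, without HFD 5). Igfbp1 stayed lower in all settings, as did Pik3r1 at its brightest probe set or as the mean of its probe sets. Taken singly, Pik3r1 probe sets 1425514_at and 1451737_at stood at 0.25 and 0.02. Array centring takes from every gene a median that moved more than 6 members did, and the medians of MSXH 4 and 6 were the highest, which lowered MSXH against HFD and turned these: Irs1 -0.45, Akt1 -0.52, Akt2 -0.51, Gcgr -0.50, Gab1 -0.50, Grb2 -0.51, Igfbp4 -0.49, Ptprf -0.38 and Sesn3 -0.42. Quantile normalization, for which the cause was not tested, turned these: Akt1 -0.47, Akt2 -0.78, Gcgr -0.67, Gab1 -0.69, Grb2 -0.29, Igfbp4 -0.45, Ptprf -0.45 and Sesn3 -0.33. The mean of probe sets put Akt1 at -0.20. Without MSXH 4 and 6, centring turned Insr (0.29), Cblb (0.17), Sik3 (0.07) and Mttp (0.16), and quantile normalization turned Insr (0.04), Irs2 (0.40), Akt1 (-0.00409), Akt2 (-0.58), Foxo1 (0.17), Foxo3 (0.14), Adcy5 (0.49), Cblb (0.70), Gab1 (-0.37), G6pc (0.53) and Mttp (0.41), and the cause was not tested. Leaving out 1 array gave Irs1 -0.08 to 0.34, Irs2 -0.39 to 0.04, Foxo1 -0.28 to 0.15 and Foxo3 -0.45 to 0.00308, and turned none of the others.

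Over all genes, limma called 0 at an adjusted p of 0.05, with 1 for the mean of probe sets, 1 with centring without MSXH 4 and 6, 4 by the rank sum test and 0 to 3 when 1 array was left out. At an unadjusted p under 0.05, the share of genes that stood higher was 60.4%, with 13.3% after centring and 1.28% after quantile normalization (1982, 98 and 1013 genes), and without MSXH 4 and 6 75.3% after centring (154 genes). Genes above the median gene gave 75.1% (986 genes). The replicate numbers do not pair the mice, and the replicate block gave 0 calls, with Gcgr at 1.55, Igfbp1 at -1.05 and Pik3r1 at -0.99.

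Of the pairs of members, 2 passed, against 20 after centring, which adds 1 shared value to all genes of an array, 1 without MSXH 4 and 6, and 0 to 3 when 1 array was left out. Pik3r1 with Foxo1 had rho -0.59 after quantile normalization and -0.52 after centring (adjusted permutation p 0.0936 and 0.065), and -0.74 to -0.61 when 1 array was left out. Pik3r1 with Igfbp1 had -0.68 without MSXH 4 and 6 (adjusted permutation p 0.0618), and -0.74 to -0.64 when 1 array was left out. Of the 60 relations with insulin-regulated genes, 14 passed, against 4 of the 54 defined after quantile normalization, 5 after centring and 7 without MSXH 4 and 6, settings added after the data were seen.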
